A study of Bos taurus with 7 samples.

Results

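Fragments of 12 to 15 nt that match cytosolic lysine tRNA (tRNA-Lys) were followed in small RNA libraries of cow's milk. A sequence was counted when it matched mature lysine tRNA exactly, on its own strand and with the 3' CCA tail added, and matched none of 47 other cytosolic tRNAs of 20 isotypes. By this rule 107 sequences were lysine tRNA fragments, of 149728 distinct sequences of 12 to 15 nt and 229971 of 8 to 15 nt. Of these, 10 began at base 1 or 2 and are called 5' end fragments, 24 ended within the last 4 of the 76 bases and are called 3' end fragments, and 73 lay between and are called inner fragments. Together they held 133877 reads. The check on abundance held: leaving out the forms of the leading sequence of the series, the 12-nt sequence of highest milk mean was a lysine tRNA fragment.

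There were 7 libraries, 1 each of the milk fractions titled MP 12k, MP 35k, MP 70k and MP 100k and 3 of milk. What MP and k stand for is not in the labels. All 7 carry the same description, a commercial food product from Holstein cows (Bos taurus) sold as Lactantia purefilter, which was skimmed, filtered, homogenized and pasteurized. Total RNA was extracted with Trizol LS, and libraries of inserts of about 8 to 35 nt were made. The labels do not say whether the milk libraries came from separate cows, cartons or extractions, so a p-value speaks only of how these libraries spread, which may be a technical spread, and each fraction is 1 library without a replicate. The deposited lists cover the 8 to 15 nt window and held 1817538 to 2560280 reads per fraction and 1658606 to 4572650 per milk library. Levels below are reads per 1000000 reads of that total (RPM). They are relative, so a lower level of a fragment and a higher level of other RNAs cannot be told apart.

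Transfer RNAs carry amino acids to the ribosome and pair with codons of the messenger through their anticodon. Lysine is carried by a pair of isoacceptors, tRNA-Lys-CUU and tRNA-Lys-UUU, named after their anticodons, which read the lysine codons AAG and AAA. Nucleases cut tRNAs mainly in their loops, and the resulting fragments are common in body fluids, milk included. The 3' end of every mature tRNA carries a CCA tail that is added after transcription and that holds the amino acid. RefSeq's annotation of the cattle assembly ARS-UCD2.0 lists 31 genes named TRNAK-CUU and 50 named TRNAK-UUU, of which 29 and 42 are 73 bases long, which is 76 bases with the tail.

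The sequences that carry the results are given as the files write them, as DNA letters, 5' to 3', because the isoacceptors can be told apart in them. Each is named by isoacceptor and by its first and last base in the tRNA, counted from 1 at the 5' end. Capitals mark bases at which the isoacceptors differ, as far as both were covered by reads. For CUU 44-55 the last 3 bases were not covered in UUU.
UUU 1-15: gcccggAtagctcag
UUU 1-13: gcccggAtagctc
CUU 1-15: gcccggCtagctcag
CUU 1-14: gcccggCtagctca
CUU 14-28: agtcggtagagcatG
CUU 15-28: gtcggtagagcatG
UUU 14-28: agtcggtagagcatC
CUU 44-55: gggtcGTgggtt
CUU 63-75: cACGtTgggcgcc
CUU 64-75: ACGtTgggcgcc
CUU 64-76: ACGtTgggcgcca
CUU 65-76: CGtTgggcgcca
UUU 63-75: cTGTtCgggcgcc
UUU 64-75: TGTtCgggcgcc
The 3' end fragments 63-75, 64-75 and 64-76 of CUU differ from the same bases of UUU at 4 bases, and CUU 65-76 at 3. The inner fragments 14-28 differ only at their last base and the fragments 1-15 at 1 base. Of the 107 sequences, 71 were CUU, 25 UUU, and 11 inner ones fitted both. The stretches searched covered more bases in CUU than in UUU, so these counts do not compare the isoacceptors evenly.

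Of the lysine tRNA fragments counted in milk, most reads were a 12-nt piece of the 3' end of tRNA-Lys-CUU. Longer forms of the tRNA lie outside the deposited lengths and were not seen. The fragments summed to 3781 RPM in the 12k fraction, 8972 RPM in 35k, 798 RPM in 70k and 491 RPM in 100k, against 7620.2, 12876 and 10408 RPM in the milk libraries. The 12k, 70k and 100k fractions lay below every milk library, and the 35k fraction lay within their range. Relative to the milk mean of 10301 ± 2629.5 RPM (SD, n = 3), the sum was 2.72-fold lower in 12k, 12.9-fold lower in 70k and 20.98-fold lower in 100k. Lysine tRNA fragments thus made up 0.0798% of the reads in 70k (95% Wilson interval 0.0758 to 0.084) and 0.0491% in 100k (0.0461 to 0.0523), against 0.762% to 1.29% of the reads in milk. Without molecular identifiers on the reads, these intervals and the limits below account for counting error alone.

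**Figure D1:**
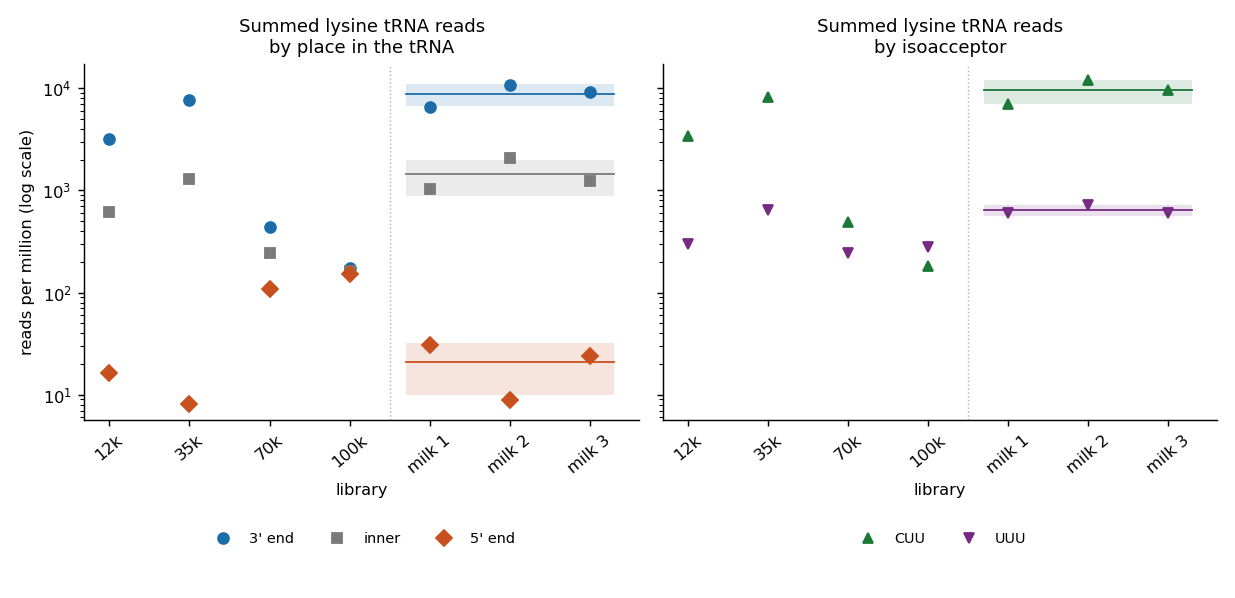
Summed RPM of lysine tRNA fragments in each library, on a log scale, by place in the tRNA (left) and by isoacceptor (right); lines and bands are the mean and SD of the 3 milk libraries, and each fraction is 1 library. In 70k and 100k the 3' end and CUU sums lie far below milk, while the 5' end sum, at 108 and 154 RPM, lies above every milk library.

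The 3 places in the tRNA moved apart in the 70k and 100k fractions. The 3' end fragments summed to 3155 RPM in 12k, 7681 RPM in 35k, 443 RPM in 70k and 174 RPM in 100k, against 6568, 10785 and 9154 RPM in milk. Against the milk mean of 8835 ± 2127 RPM this was 2.80-fold lower in 12k, 19.95-fold lower in 70k and 50.7-fold lower in 100k, while 35k lay within the milk range. The inner fragments summed to 609 RPM in 12k, 1283 RPM in 35k, 246 RPM in 70k and 163 RPM in 100k, against 1022, 2082 and 1230.4 RPM in milk. They were lower than in every milk library in 12k, 70k and 100k, but less far from the milk mean of 1445 ± 562 RPM than the 3' end, 5.86-fold in 70k and 8.86-fold in 100k. The 5' end fragments summed to 16.5 RPM in 12k, 8.20 RPM in 35k, 108 RPM in 70k and 154 RPM in 100k, against 30.7, 8.79 and 23.8 RPM in milk. In 70k and 100k they were above every milk library, 5.13-fold and 7.28-fold over the milk mean of 21.1 ± 11.2 RPM. The difference between the places was not tested, since each fraction is 1 library.

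The make-up of the lysine reads changed with it. The 3' end held 83.5% of them in 12k, 85.6% in 35k, 55.5% in 70k and 35.5% in 100k, against 86.0% ± 2.10 in milk (n = 3). The 5' end held 0.435%, 0.0914%, 13.6% and 31.3% in the same 4 fractions, against 0.234% ± 0.168 in milk. In 70k and 100k the intervals did not overlap those of milk: the 95% Wilson interval of the 5' end share was 11.9% to 15.4% in 70k and 28.4% to 34.3% in 100k, and the milk library with the highest share reached 0.530% at its upper bound. These intervals cover counting error within a library, not the spread between libraries. Lengths shifted too. Fragments of 12 nt made up 72.9%, 71.8%, 41.9% and 25.4% of lysine reads in 12k, 35k, 70k and 100k, against 74.4% ± 0.753 in milk. Fragments of 15 nt made up 10.01%, 9.03%, 25.9% and 39.4%, against 8.68% ± 1.51 in milk. Of the 12-nt reads, CUU 64-75 held 33652 of 35764 in milk replicate 3 and 144 of 242 in 100k. Of the 375 reads of 15 nt in 100k, UUU 1-15 held 166 and UUU 14-28 held 137.

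The plot of coverage by base shows where in the tRNA these reads lie. In milk the coverage formed 3 blocks with sharp edges. The tallest ran from base 64, near the end of the T arm, through the acceptor stem to the tail, with 177 to 7689 RPM over base 71 in the fractions and 8835 RPM as the milk mean. The next, at 1117 RPM over base 21 in the milk mean, ran from base 14 to 28, through the D arm into the anticodon stem. The third ran from base 44 to 55, from the variable loop into the T arm, at 315 RPM over base 49. Members were sought only within stretches joined from overlapping reads, which limits where coverage could appear. Between the blocks the counted coverage of the anticodon loop was thin: base 36 was covered by 10.4, 4.30, 6.05 and 3.61 RPM in 12k, 35k, 70k and 100k, against 11.1 RPM as the milk mean. The UUU stretches stopped at base 28 and began again at base 40, so base 36 counts CUU reads alone. Bases 58 and 59 lay in no stretch, so no member could cover them. The 5' end did not reach the height of any of these blocks in milk, with 21.1 RPM over base 1, whereas in 100k base 1 was covered by 146 RPM and base 49 by 14.4 RPM.

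**Figure D2:**
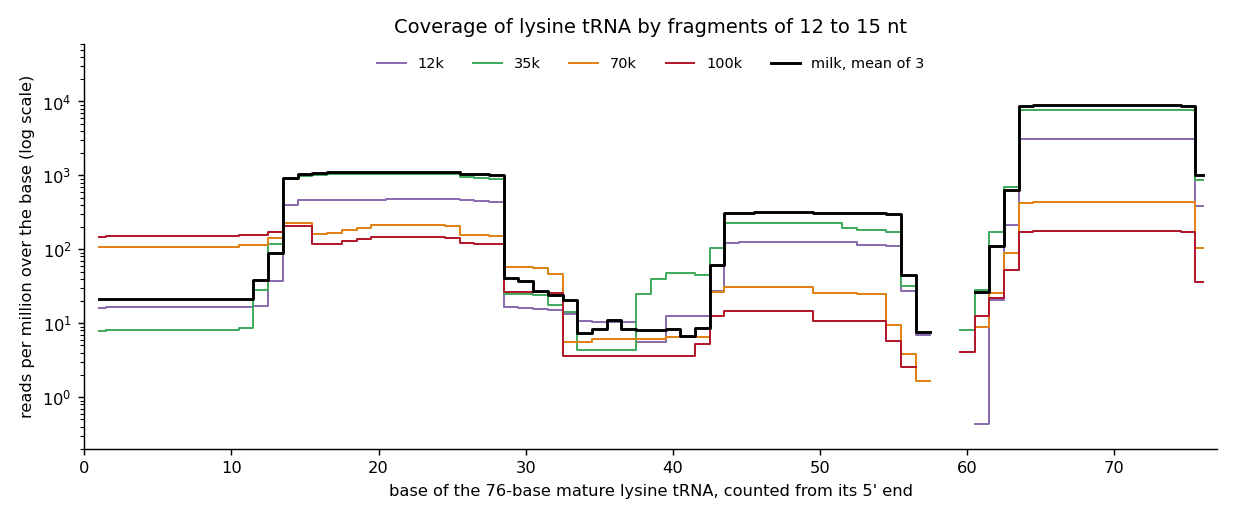
RPM over each base of mature lysine tRNA, log scale, in each fraction and as the mean of the 3 milk libraries, for CUU and UUU together. Gaps are bases that no member covered, which includes bases outside the joined stretches. The 3 blocks of milk recur in 12k and 35k, and in 70k and 100k the blocks are lower while the first 13 bases stand above milk.

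The 3' end block was dominated by 1 sequence. The check on abundance singled it out by its milk mean, so its fall against milk is not independent of that choice. CUU 64-75 stops 1 base before the terminal A, and it held 68.1% of all lysine reads. It had 2523 RPM in 12k, 6084 RPM in 35k, 246 RPM in 70k and 74.3 RPM in 100k, against 5219, 8736 and 7359 RPM in milk. It was below every milk library in 12k, 70k and 100k, and 35k lay within their range. In the comparison of single fractions with milk, where the spread came from the milk libraries alone, it fell by 5.24 on the log2 scale in 70k (SE 1.14, edgeR quasi-likelihood test, adjusted p = 0.0294) and fell by 6.36 in 100k (SE 1.21, adjusted p = 0.00238). CUU 64-76, the same piece with the terminal A, had 286 RPM in 12k, 699.9 RPM in 35k, 68.2 RPM in 70k and 26.8 RPM in 100k, against 586, 933 and 903 RPM in milk. Again all but the 35k fraction lay below every milk library. Its log2 fold change was -3.97 in 70k (adjusted p = 0.0637), and it fell by 4.70 in 100k (SE 1.23, adjusted p = 0.0255). CUU 63-75, which starts 1 base earlier, had 103 RPM in 12k, 265 RPM in 35k, 22.6 RPM in 70k and 15.0 RPM in 100k, against 249, 383 and 361 RPM in milk, and fell by 4.25 in 100k (SE 1.27, adjusted p = 0.0479). It too was below every milk library in 12k, 70k and 100k.

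Most 3' end reads ended at base 75 rather than at the last base. Fragments ending at base 75 made up 72.6%, 75.2%, 41.8% and 27.3% of lysine reads in 12k, 35k, 70k and 100k, against 75.8% ± 1.69 in milk. Fragments ending at base 76, with the complete tail, made up 10.2%, 9.76%, 13.1% and 7.46%, against 9.996% ± 0.523 in milk. The ratio of CUU 64-76 to CUU 64-75, which differ by the terminal A alone, was 0.113 in 12k, 0.115 in 35k, 0.277 in 70k and 0.361 in 100k, against 0.112, 0.107 and 0.123 in milk. The 70k and 100k fractions were above every milk library, and 12k and 35k lay within the milk range.

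Reads with 1 more base than CUU 64-75 showed which bases lay next to it. After its last base, the A of the tail gave 808 ± 192 RPM in milk, against 1.49 RPM for C, 0.564 RPM for G and 6.43 RPM for T. Before its first base the range was wider. The C taken as that base of tRNA-Lys-CUU (CUU 63-75) gave 331 ± 71.9 RPM in milk, and a G gave 262 ± 69.9 RPM. Whether some lysine tRNA genes hold a G there was not checked. T and A gave 63.1 ± 10.95 and 29.7 ± 11.1 RPM. The form with the extra G, shown here with that base in capitals, did not count as a member.
CUU 64-75 with an extra 5' G: Gacgttgggcgcc
It had 294 reads in 12k, 773 in 35k, 11 in 70k and 1 in 100k, against 319, 1020 and 1200 in milk, while CUU 63-75 had 237, 679, 41 and 29 reads, against 413, 1176 and 1652. In 12k and 35k the form with G outnumbered the one with C, and in 70k, in 100k and in each milk library it did not.

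The UUU 3' end was rarer and differed less. UUU 64-75 had 56.7 RPM in 12k, 121 RPM in 35k, 17.1 RPM in 70k and 18.1 RPM in 100k, against 129.6, 139 and 122 RPM in milk. All 4 fractions were below every milk library, 35k by a margin of 1.08-fold to the milk mean of 130.2 ± 8.63 RPM. UUU 63-75 had 45.0 RPM in 12k, 171 RPM in 35k, 26.4 RPM in 70k and 10.3 RPM in 100k, against 118, 175 and 133 RPM in milk, with 35k within the milk range and the others below it. Neither passed the test in any fraction. In 100k their log2 fold changes were -2.58 (SE 1.22, edgeR adjusted p = 0.198) and -3.53 (SE 1.30, adjusted p = 0.107). CUU 65-76 was close to the threshold in 100k, with a log2 fold change of -4.67 (adjusted p = 0.0596); it had 60.2, 81.2, 14.3 and 4.13 RPM in 12k, 35k, 70k and 100k, against 92.2, 198 and 94.7 RPM in milk. All 4 fractions were below every milk library.

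The inner fragments of bases 14-28 also differed by isoacceptor in 70k and 100k. CUU 14-28 had 520 reads (225 RPM) in 12k, 1382 reads (540 RPM) in 35k, 34 reads (18.7 RPM) in 70k and 6 reads (3.09 RPM) in 100k, against 665, 2733 and 1880 reads in milk (401, 890 and 411 RPM). The 12k, 70k and 100k fractions were below every milk library. It fell by 5.25 on the log2 scale in 70k (SE 1.30, edgeR adjusted p = 0.0476) and fell by 7.22 in 100k (SE 1.47, adjusted p = 0.00431). UUU 14-28, identical but for the last base, had 258 reads (112 RPM) in 12k, 495 reads (193 RPM) in 35k, 94 reads (51.7 RPM) in 70k and 137 reads (70.7 RPM) in 100k, against 324, 886 and 997 reads in milk (195, 289 and 218 RPM). It was below every milk library in all 4 fractions, 35k by a narrow margin, and did not pass the test (100k: log2 fold change -1.47, SE 1.06, adjusted p = 0.347). In 100k the UUU form thus had more reads than the CUU form, and in each milk library fewer.

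CUU 15-28 and CUU 44-55 were nearly gone from the 100k fraction. CUU 15-28 had 118, 192, 7 and 2 reads in 12k, 35k, 70k and 100k, against 94, 345 and 309 in milk. The 12k, 70k and 100k fractions were lower in RPM than every milk library. The 2 reads in 100k correspond to a ratio of 0.0128 to the pooled milk RPM (95% exact interval 0.00155 to 0.0465), and the change passed the test (log2 fold change -5.95, SE 1.72, edgeR adjusted p = 0.0424). CUU 44-55 had 187, 280, 9 and 1 reads, against 211, 1339 and 714 in milk. It was lower in RPM in all 4 fractions than in every milk library. The single read in 100k corresponds to a ratio of 0.00212 to pooled milk (95% exact interval 5.36e-05 to 0.0118). It passed the test in 70k (log2 fold change -5.92, SE 1.49, adjusted p = 0.0476) and in 100k (-8.48, SE 1.81, adjusted p = 0.0073). Milk replicate 2 was high for this sequence, with 436 RPM against 127 and 156 RPM in milk replicates 1 and 3.

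**Figure D3:**
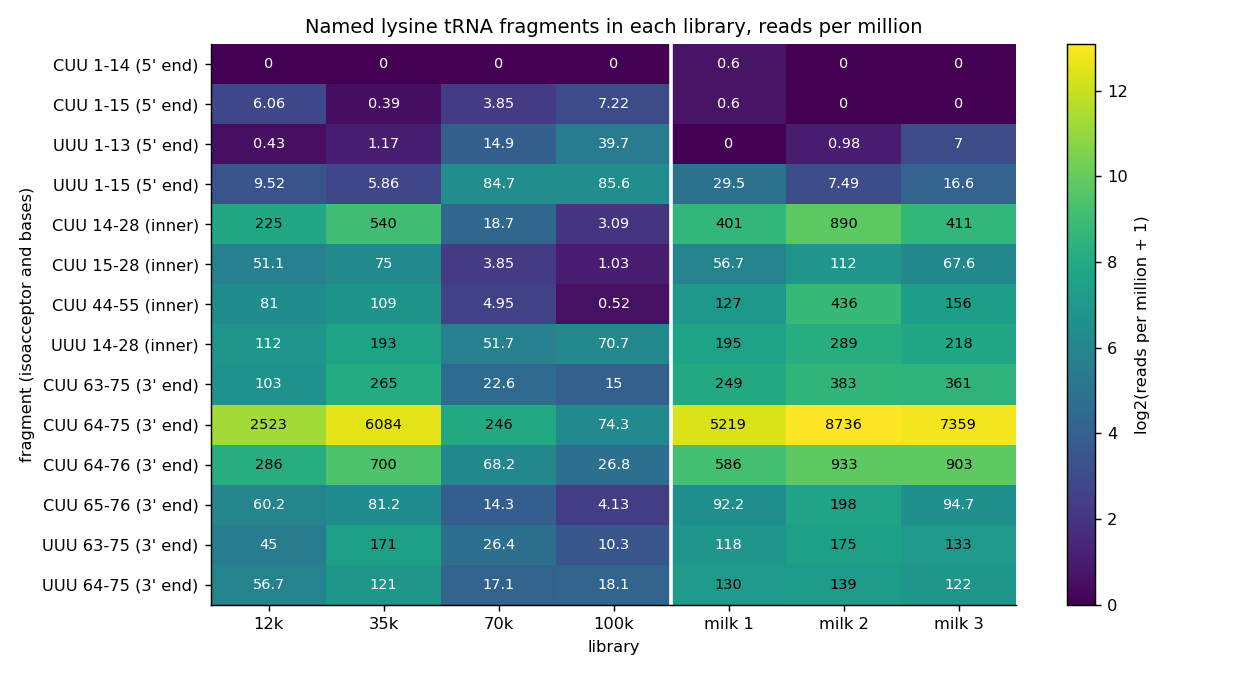
RPM of the 14 named fragments in each library, printed in the cells and coloured by log2(RPM + 1), ordered from the 5' end to the 3' end of the tRNA with fractions left of milk. The inner and 3' end CUU rows fade toward 100k, with CUU 64-75 at 74.3 RPM there, while UUU 1-15 is brightest in 70k and 100k at 84.7 and 85.6 RPM.

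The 5' end fragments were few in kind and went the other way in 70k and 100k. UUU 1-15 had 22 reads (9.52 RPM) in 12k, 15 reads (5.86 RPM) in 35k, 154 reads (84.7 RPM) in 70k and 166 reads (85.6 RPM) in 100k, against 49, 23 and 76 reads in milk (29.5, 7.49 and 16.6 RPM). The 70k and 100k fractions were above every milk library, 35k was below, and 12k lay within the milk range. It did not pass the test: its log2 fold change was 1.96 in 70k (SE 1.096, edgeR adjusted p = 0.249) and 2.59 in 100k (SE 1.08, adjusted p = 0.152). UUU 1-13 had 1, 3, 27 and 77 reads in 12k, 35k, 70k and 100k, against 0, 3 and 32 in milk. In 100k it had 39.7 RPM, against at most 6.998 RPM in milk, and the test gave an adjusted p of 0.178 by edgeR. CUU 1-15 had 14, 1, 7 and 14 reads, against 1, 0 and 0 in milk, too few for the read filter of the test. Its ratio of 100k to pooled milk was 67.2, with a 95% exact interval of 10.2 to 2840. CUU 1-14 had 1 read in 1 milk library and 0 elsewhere.

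The first 15 bases of tRNA-Lys-UUU are shared with a bacterial RNA, phenylalanine tRNA of Escherichia coli. By exact match 14 of the 107 members also lie in that tRNA, 5 at the 5' end and 9 inner ones, and none at the 3' end. Among the named sequences these are UUU 1-15 and UUU 1-13. For them a source in cattle and one in bacteria cannot be told apart. Sequences of 12 to 15 nt that are in the bacterial tRNA but in neither lysine tRNA nor the listed tRNAs had 10, 2, 12 and 10 reads in 12k, 35k, 70k and 100k, against 0, 11 and 43 in milk. The 5' end members found in both had 24, 20, 189 and 281 reads in these fractions, against 49, 27 and 109 in milk. The 5' end members not in the bacterial tRNA, all CUU, summed to 14, 1, 8 and 17 reads, against 2, 0 and 0 in milk. Other bacterial tRNAs were not checked. Without the 14 shared members the lysine sum was 634 RPM in 70k and 319 RPM in 100k, against a milk mean of 10182 ± 2594 RPM.

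Set side by side, the CUU sum was 3438 RPM in 12k, 8175 RPM in 35k, 489.7 RPM in 70k and 183 RPM in 100k, against 6953, 12008 and 9658 RPM in milk. The UUU sum was 299 RPM, 636 RPM, 246 RPM and 281 RPM in the same fractions, against 597, 725 and 597 RPM in milk. Both were below every milk library in 12k, 70k and 100k, CUU by 19.5-fold in 70k and 52.1-fold in 100k relative to its milk mean, and UUU by 2.60-fold and 2.28-fold. UUU made up 7.91%, 7.09%, 30.9% and 57.2% of lysine reads in 12k, 35k, 70k and 100k, against 6.40% ± 1.24 in milk. In 70k and 100k, 104 and 145 RPM of the UUU sum were 5' end members also in phenylalanine tRNA of Escherichia coli. These members had 20.7 ± 10.7 RPM in milk. The UUU folds and shares above include them, and their source cannot be told apart. The gap between CUU and UUU was not set by the 5' end alone. Inner UUU was 3.57-fold and 2.84-fold below its milk mean in 70k and 100k, and inner CUU 9.39-fold and 22.8-fold. At the 3' end, UUU summed to 153, 418, 71.5 and 46.9 RPM, against 366 ± 42.2 RPM in milk, and CUU to 3002, 7263, 371 and 127 RPM, against 8470.0 ± 2093 RPM.

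Ratios within a library do not depend on its total. The ratio of UUU 14-28 to CUU 14-28 was 0.496 in 12k, 0.358 in 35k, 2.76 in 70k and 22.8 in 100k, against 0.487, 0.324 and 0.530 in milk. The ratio of UUU 64-75 to CUU 64-75 was 0.0225, 0.0198, 0.0692 and 0.243, against 0.0248, 0.0159 and 0.0166 in milk. In both, 70k and 100k were above every milk library and 12k and 35k within the milk range. Taking the 4 fractions together against the 3 milk libraries, a two-sided exact permutation test gave p = 0.286 for the first, p = 0.171 for the second and p = 0.286 for the ratio of CUU 64-76 to CUU 64-75 (adjusted p = 0.286 each). With 35 splits, the exact permutation test cannot go below p = 0.0571. The 3 pairs were chosen after their values had been seen, so these tests describe and do not add evidence.

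**Figure D4:**
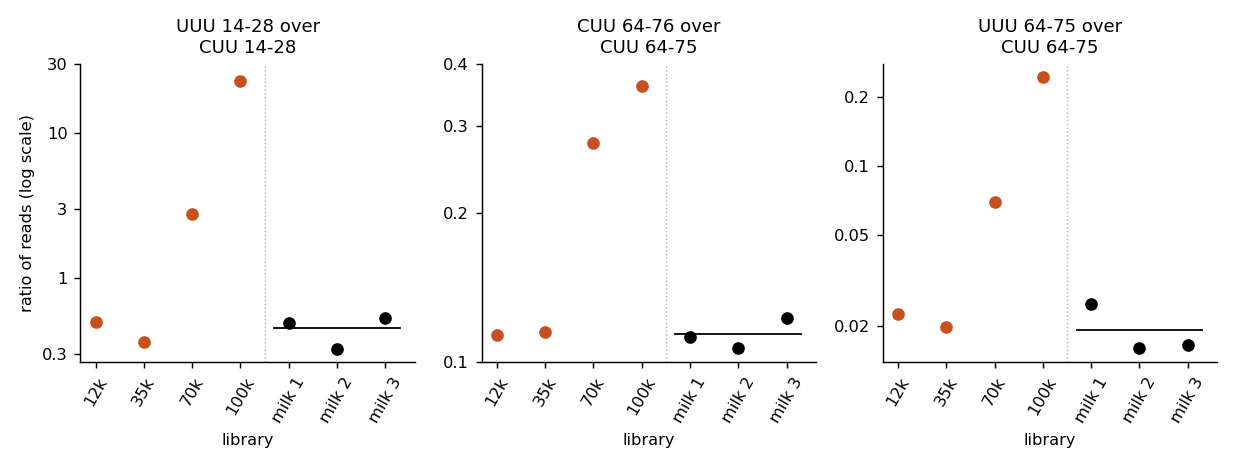
Ratio of reads of pairs of lysine tRNA fragments within each library, log scales that differ between panels, with fractions in orange left of milk in black and the milk mean as a line. In all 3 panels 70k and 100k stand above milk, up to a ratio of 22.8 for UUU 14-28 over CUU 14-28 in 100k, while 12k and 35k lie in the milk range.

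Across the list, 35 of the 107 members had at least 10 reads in at least 3 libraries and were tested, 2 at the 5' end, 17 inner and 16 at the 3' end. They held 98.7% of the lysine reads. With the 4 fractions taken as 1 kind against milk, edgeR called none of the 35 (3 had an unadjusted p under 0.05, DESeq2 called 0), where 0.0352% of all 5681 sequences tested were called, 17.5% had an unadjusted p under 0.05 and DESeq2 called 7.27%. In 12k edgeR called none (2 at an unadjusted p under 0.05, DESeq2 0), where 1.67% of all sequences were called, 10.4% had an unadjusted p under 0.05 and DESeq2 called 3.24%. In 35k edgeR called none (1 at an unadjusted p under 0.05, DESeq2 0), where 2.36% of all were called, 12.6% had an unadjusted p under 0.05 and DESeq2 called 4.37%. In 70k, 3 members were called, all lower, where 1.13% of all sequences were called and 0.616% were called lower. In 100k, 6 were called, all lower, where 3.93% of all were called and 1.81% were called lower. All called members were CUU, and 2 of the 3 in 70k and 3 of the 6 in 100k were inner fragments. No UUU member was called by this test, whereas DESeq2 called UUU 14-28, UUU 63-75 and UUU 64-75 lower in both 70k and 100k. A difference between the isoacceptors was not tested as such. The median fitted log2 fold change of the 35 members was -3.27 in 70k and -3.53 in 100k, against -0.98 and -0.87 over all sequences tested. With sequences at 0 in a fraction set to its limit of 3 reads, and without TMM, the medians were -2.64 and -2.85, against -0.57 and -0.96. In 70k, 24 of the 35 lay below every milk library, where 37.5% of all sequences tested did, and in 100k 27 of the 35, where 40.8% did.

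These calls were lost under another scaling and without 1 milk library. With file totals in place of TMM factors, and likewise without milk replicate 2, no lysine member was called in 70k or 100k (of all sequences tested, 0% and 0% with file totals, and 0% and 0.022% without that library), although 14 and 17 had an unadjusted p under 0.05 with file totals, where 22.3% and 23.2% of all sequences did, and 7 and 12 without that library, where 10.5% and 11.3% did. Without milk replicate 1, 11 were called in each, where 10.4% of all sequences in 70k and 11.7% in 100k were. With DESeq2, 16 were called in 70k and 18 in 100k, where 14.8% and 16.1% of all were. All of these were lower. In 100k, CUU 63-75 was also lost without the 10 most abundant sequences (edgeR adjusted p = 0.0523) and CUU 15-28 with a minimum of 1 read in 2 libraries (adjusted p = 0.221). Under each of these 5 members were called, where 4.18% and 0.0908% of all sequences were. In each of these alternatives the log2 fold changes of the 6 called sequences kept their sign. CUU 64-75, for instance, ranged over the 8 alternatives from -6.52 to -4.35 in 70k, with adjusted p between 3.16e-19 and 0.423, and from -7.75 to -5.95 in 100k, with adjusted p between 7.03e-25 and 0.415.

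Against other tRNAs, lysine with its leading sequence CUU 64-75 ranked high in milk level and in the fold by which 70k and 100k lay below milk. Lysine fragments had a higher milk mean than those of each of the 20 other isotypes on the list, of which glycine came next with 5139 ± 838 RPM. This rank rests on CUU 64-75, the sequence of the check on abundance: without it lysine averaged 3197 ± 878.5 RPM in milk, below glycine. The others were matched to sequences entered from general knowledge, so tRNA genes missing from that list would lower their levels. All 20 were below their milk mean in 70k and in 100k. Ranked by that fold, lysine was the second in 70k, after histidine at 41.1-fold, and the fifth in 100k, where histidine was 97.9-fold lower. These ranks include CUU 64-75 as well. Without it the lysine fold was smaller in 70k and 100k, and below that of alanine, 11.3-fold and 17.1-fold. The isotypes whose log2(RPM + 1) followed lysine most closely over the 7 libraries were alanine (r = 0.995), tryptophan (r = 0.99) and valine (r = 0.99), all of which share the library totals. In 70k these 3 had 105, 69.9 and 64.9 RPM, and in 100k 69.1, 32.5 and 42.8 RPM, against 1179.6 ± 384, 702 ± 187 and 273 ± 72.1 RPM in milk. For alanine these were mostly 5' end fragments, 63.8 RPM in 70k and 45.4 RPM in 100k, against 1107 RPM in milk. The 5' end sum was above its milk mean in 0 of these 20 isotypes in 70k and in 3 of them in 100k, of which valine had the most, with 10.3 RPM in 100k against 6.25 RPM in milk. Not all 20 could be compared: glutamine, methionine, asparagine, phenylalanine, aspartate and proline had 0 RPM at the 5' end in milk and in 70k. In 100k aspartate had 4.13 RPM and phenylalanine 1.03 RPM there. Most lysine 5' end reads in 70k and 100k were of members shared with Escherichia coli tRNA.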

How the data were processed

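Small RNA libraries of 3 milk samples and 4 milk fractions were compared. Per the file headers, the authors deposited for each distinct sequence of 8 to 15 nt its read count. The deposited RPM column was not used; RPM here is a count divided by the file total, times 1000000. The sources used here do not give trimming, collapsing, aligner or build. Each file closes with 1 total that names no sequence and equals the sum of its reads, so it was left out. Totals of the 8 to 15 nt window are not the depth of whole libraries; a count of 0 allows up to 3 reads, or 0.656 to 1.81 RPM.

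No tRNA sequence or genome was given. Deposited reads of 12 to 15 nt were joined by overlaps of 11 bases, each step backed by at least 3 reads, outward from 10 words of 9 nt that mark lysine tRNAs. A stretch also ended where the leading next base did not outnumber all others together. The words, their positions, the names CUU and UUU and the list of 47 other tRNAs came from general knowledge and were not checked against a bovine genome. The words were revised once after the joined stretches had been compared with lysine tRNA as known. Fragments outside the stretches, rare or not, were not counted. The members and lists were chosen with earlier results of these data known, and the check against Escherichia coli tRNA was added after the data were seen. No other listed tRNA held a member.

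The 5681 sequences that reached 10 reads in 3 or more libraries were tested on the deposited counts with edgeR 4.0.16 in R 4.3.3 (quasi-likelihood, TMM, Benjamini-Hochberg at 0.05 over all of them). Pooled fractions were set against milk. A model of 5 group means set each fraction against milk, with the spread from the milk libraries and the fraction assumed to vary like them. The script was tested on simulated data. Alternatives were file totals, DESeq2 1.42.0, minimums of 1 read in 2 libraries and 50 reads in 3, leaving out the 10 most abundant sequences that are no members, and leaving out each library. Named sequences were the 10 with the highest milk mean, the top 4 of each place in the tRNA, the top 2 of each fraction, and up to 5 called per direction and comparison. Intervals of shares are Wilson, those of ratios exact. Python 3.11.15 and SciPy 1.17.1 were used.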

Additional observations from a re-analysis of the deposited data

Results flagged for a closer look

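UUU 1-15 drew attention because single fractions moved to opposite sides of milk. It had 84.7 RPM in 70k and 85.6 RPM in 100k, above every milk library, and 5.86 RPM in 35k, below every milk library (29.5, 7.49 and 16.6 RPM). The difference between the fractions was not tested, since each is 1 library. This sequence is also in phenylalanine tRNA of Escherichia coli. No group held 4 to 10 libraries, so no library was tested as standing apart from its group.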

How the results depend on the processing

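No paired analysis was possible because each fraction is 1 library and the labels give the fractions no replicate numbers to match to milk. Percentages in brackets are the shares called among all sequences tested in the same run. The count of called lysine sequences was 0 for the pooled fractions, 12k and 35k under every alternative run (at most 7.27%, 3.24% and 4.37%). In 70k it was 3 (1.13%), and it became 0 with file totals (0%) and 16 with DESeq2 (14.8%). A minimum of 1 read in 2 libraries gave 5 of 78 (0.0661%), and a minimum of 50 reads gave 7 of 18 (25.5%). Leaving out 1 milk library gave 0 to 11 (0% to 10.4%). In 100k it was 6 (3.93%), and it became 0 with file totals (0%) and 18 with DESeq2 (16.1%). A minimum of 50 reads gave 11 of 18 (31.4%). Leaving out 1 milk library gave 0 to 11 (0.022% to 11.7%). All calls were lower.

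The log2 ratio of the summed lysine RPM to the milk mean was -1.45 in 12k, -0.20 in 35k, -3.69 in 70k and -4.39 in 100k. With distinct sequences in place of reads it was 0.094 in 12k, -0.68 in 70k and -0.57 in 100k. With members of 14 or 15 nt only it was -2.17 in 70k and -2.27 in 100k, and without the most abundant member, chosen after seeing the data, -2.54 and -2.94. TMM-scaled totals gave -0.62 in 35k and -4.08 in 70k, totals without the 10 most abundant sequences gave -0.72 in 35k, and leaving out members shared with the Escherichia coli tRNA, also chosen after seeing the data, gave -4.99 in 100k. Leaving out 1 milk library gave -1.62 to -1.25 in 12k, -0.38 to -0.0067 in 35k, -3.87 to -3.50 in 70k and -4.57 to -4.20 in 100k. The cause of these shifts was not tested.

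Some uncalled fold changes near 0 changed sign. In 35k, CUU 14-28 became 0.070 and CUU 15-28 0.055 with a minimum of 50 reads. Leaving out 1 milk library gave -0.84 to 0.27 for CUU 14-28, -0.87 to 0.11 for CUU 15-28 and -0.47 to 0.30 for UUU 63-75. UUU 63-75 in 35k became 0.27 with file totals, 0.040 with DESeq2 and 0.39 with a minimum of 50 reads. UUU 1-15 over the pooled fractions became -0.037 with a minimum of 1 read. Shares by place moved by more than the milk SD in 62 of 84 recalculations. The UUU over CUU log2 ratio difference at bases 14-28, 2.06 between fractions and milk, was 0.85 without 100k; for 64-75 it was 1.48, and 0.75 without 100k; for the terminal A it was 0.74, and 0.43 without 100k. Depth was lowest in milk replicate 1, with 1658606 reads, and among the fractions in 70k, with 1817538 reads, where a count of 0 allows up to 1.65 RPM.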

Other observations

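The files also hold shorter pieces of the CUU 3' end, of 8 to 11 nt and outside the length range of the members, and the 3 most abundant of them are given here. The 11-nt piece of bases 65 to 75 had 533 reads (231 RPM) in 12k, 1633 reads (638 RPM) in 35k, 65 reads (35.8 RPM) in 70k and 29 reads (15.0 RPM) in 100k, against 935, 3123 and 4124 reads in milk (564, 1017 and 902 RPM). It was 23.1-fold below the milk mean in 70k and 55.3-fold in 100k. The 11-nt piece of bases 64 to 74 had 79.2, 84.8, 14.9 and 12.9 RPM in the 4 fractions, against 113, 246 and 202 RPM in milk, and was 12.6-fold and 14.5-fold below the milk mean in 70k and 100k, and below every milk library in 12k and 35k too. The 10-nt piece of bases 64 to 73 had 97, 211, 7 and 0 reads, against 124, 440 and 532 in milk. Rarer pieces varied: that of bases 66 to 74 had 26.6 RPM in 35k, against a milk mean of 1.41 RPM. None of the pieces named here was found in the 47 other tRNAs on the list, but sequences this short can also come from RNAs that were not listed.

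Reads of the opposite strand of the lysine stretches, and reads of mitochondrial lysine tRNA as listed from general knowledge, were 0 throughout the 7 libraries. A count of 0 leaves room for 0.656 to 1.81 RPM, depending on the depth.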
